A study of Mus musculus with 8 samples.

Results

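Of 8 genes usually thought of as epithelial, alveolar macrophages from naive mice already held 5 at high levels, while a pair, Krt8 and Krt18, appeared only at the late tumor time. By the limits given below, 62.7% of all genes in the expression table were high in naive macrophages and 1.16% were late only. The count of 5 of 8 is thus near the share over all genes. The 8 genes encode 4 keratins (Krt8, Krt18, Krt19 and Krt79), the adhesion molecule Epcam, the tight junction protein claudin 1 (Cldn1), the adherens junction protein E-cadherin (Cdh1) and the homeodomain-only protein Hopx. All 8 were found by symbol among the 12701 genes of the expression table. They were chosen by their measured levels in these same libraries, so their levels and differences below are a description, without a test, and a value that set a gene apart is not evidence about it.

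RNA was sequenced from tissue-resident macrophages of the lung, labelled alveolar macrophages, which were sorted by flow cytometry from C57BL/6 mice. Naive mice carried no tumor (3 libraries). The other mice had received KP or KP-GFP tumor cells through a tail vein, and their lungs were taken at day 15 (2 libraries) or day 35 (3 libraries) by the sample labels. The growth protocol gives a harvest window that closes before day 35, so the later time is uncertain. The labels do not say which mice received the GFP line, how old the mice were, which markers were used for the sort, or whether separate animals gave the libraries of a group. The spread between libraries may therefore be technical. The tumors grew from a transplanted line, so the tumor groups stand for that line only. Each library was made from 20000 sorted cells.

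Keratins form the intermediate filaments of epithelial cells. They assemble only as pairs of 1 type I and 1 type II chain, and Krt8 (type II) with Krt18 (type I) is the usual pair of simple epithelia, such as the lining of the lung. Krt19 is a type I keratin and Krt79 a type II keratin. Filaments are anchored at desmosomes, while cadherins and claudins join neighbouring cells at adherens and tight junctions. Alveolar macrophages sit on the alveolar epithelium and are known to express E-cadherin themselves.

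Levels are given as scaled CPM, the deposited scale, in which reads are divided by a library size and scaled as CPM, and on which 1 read was worth 0.0247 to 0.0353. The libraries held 27465745 to 39572173 reads in the table. All 13 alveolar macrophage markers listed for the check of the label were detected in every library, with summed levels of 24931 to 32470 in naive, 34174 to 38790 in day 15 and 35055 to 49187 in day 35 libraries. Most of each sum was 1 gene, Chil3, with a naive mean of 22080. At day 35 limma called 3 of the 13 higher (Cd68, Ear2 and Car4) and 1 lower, Siglecf, which went from 719 ± 36.6 to 591 ± 47.1 (SD, n = 3 each, adjusted p = 0.0330), a call lost in 9 alternative settings, among them the omission of any 1 naive library (largest adjusted p = 0.102). Day 35 replicate 2 stood apart from the other day 35 libraries in several results below, and its values are given there.

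The keratins Krt79, Krt8 and Krt18 lie in 1 stretch of chromosome 15 (GRCm38, the mm10 build), with Krt78 between Krt79 and Krt8. Krt79 spans 101929332 to 101940324 on the minus strand, Krt8 spans 101996698 to 102004482 on the minus strand, and Krt18 spans 102028180 to 102032027 on the plus strand. The gap from Krt79 to Krt8 is 56.4 kb and that from Krt8 to Krt18 is 23.7 kb. Krt79 was high in every library while Krt8 and Krt18 were near 0 in naive macrophages. Krt19 lies on chromosome 11 (100140810 to 100148665, minus strand), Epcam on chromosome 17 (87635979 to 87651129, plus) and Cldn1 on chromosome 16 (26356642 to 26371841, minus). Cdh1 lies on chromosome 8 (106603351 to 106670246, plus) and Hopx on chromosome 5 (77086988 to 77115121, minus). All 8 are annotated as protein coding. A long noncoding RNA gene (Gm36026) overlaps the start of Krt8 on the opposite strand, the antisense gene Hopxos overlaps Hopx, and Krt8 has a processed pseudogene on chromosome 7. None of these is listed in the table, and since strand use in counting is not given in the sources used here, reads from overlapping genes cannot be told apart.

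Start-site sequence is shown for Krt79, Krt8 and Krt18 of this stretch, which differed in level, and for Epcam, which was high in naive macrophages. The RefSeq promoter table (GRCm38.p6) held 6 of the 8 genes. The window searched was the 250 bases before the RefSeq start site, and the stretch printed is the part of it upstream of the annotated gene, 5′ to 3′ on the gene's strand. Capitals mark motif matches on either strand.
Krt79, chr15:101940325-101940574, minus strand: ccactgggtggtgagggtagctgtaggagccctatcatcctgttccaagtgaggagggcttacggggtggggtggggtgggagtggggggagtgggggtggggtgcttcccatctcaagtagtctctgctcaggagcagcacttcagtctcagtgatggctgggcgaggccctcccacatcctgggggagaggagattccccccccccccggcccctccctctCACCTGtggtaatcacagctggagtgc
Krt8, chr15:102004483-102004592, minus strand: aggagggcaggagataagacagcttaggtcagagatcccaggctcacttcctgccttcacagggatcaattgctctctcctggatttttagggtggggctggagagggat
Krt18, chr15:102027966-102028179, plus strand: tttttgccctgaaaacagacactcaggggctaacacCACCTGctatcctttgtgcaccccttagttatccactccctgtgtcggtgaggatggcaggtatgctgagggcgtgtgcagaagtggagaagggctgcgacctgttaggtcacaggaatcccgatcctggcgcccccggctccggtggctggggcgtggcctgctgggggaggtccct
Epcam, chr17:87635729-87635978, plus strand: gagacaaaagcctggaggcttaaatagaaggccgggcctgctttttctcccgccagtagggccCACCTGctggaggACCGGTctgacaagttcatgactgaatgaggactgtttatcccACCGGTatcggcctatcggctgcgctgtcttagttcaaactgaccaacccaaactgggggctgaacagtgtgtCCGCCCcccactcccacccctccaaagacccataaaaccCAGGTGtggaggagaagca
Distances below are from the RefSeq start site. The E-box CACCTG, a sequence read by the ZEB and SNAIL repressors, was found 27 bases upstream of Krt79 and 214 bases upstream of Krt18. It was also found 111 bases upstream of Krt8, and at 187 and 19 bases upstream of Epcam. The Krt8 match is not printed, because it lies inside the gene as annotated by GENCODE, which holds 140 bases of that window. The E-box occurs in 17.2% of 32841 RefSeq windows of the same length. The grainyhead-like core ACCGGT was found at 174 and 131 bases upstream of Epcam and occurs in 1.86% of windows. The GC box GGGCGG was found 58 bases upstream of Epcam and at 42 and 14 bases upstream of Cldn1, and occurs in 32.7% of windows. None of the 6 matched genes held TATAAA (12.4% of windows), the AP-1 motif TGANTCA (6.75%) or the PU.1 motif GAGGAAGT (2.44%) in this window. The same E-box letters stood before the RefSeq start site of a keratin gene that was high in all libraries and before those of the pair that was not. A match is only a match of letters.

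Krt19 and Krt79 were the most abundant of the 8 genes in naive macrophages. Krt19 was at 1090, 1027 and 1030 scaled CPM in the naive libraries, 982 and 899 at day 15, and 831, 1047 and 815 at day 35. Every day 15 library lay below every naive library, while day 35 replicate 2 lay within the naive range. The fitted difference in log2(scaled CPM + 1) was -0.16 (SE 0.11) at day 15 and -0.23 (SE 0.10) at day 35. Krt79, a keratin known from hair follicle canals and sebaceous glands, was at 641, 633 and 664 in naive, 632 and 778 at day 15, and 468, 776 and 465 at day 35. Its groups overlapped in all 3 comparisons, with log2 differences from naive of 0.12 (SE 0.19) and -0.22 (SE 0.17). Both keratins were lower in day 35 replicates 1 and 3 than in replicate 2. The ratio of day 35 replicate 1 to replicate 2 was 0.794 for Krt19 and 0.604 for Krt79, and that of replicate 3 to replicate 2 was 0.778 and 0.599.

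Epcam, an adhesion molecule of simple epithelia, was at a naive-like level at day 15 and lower at day 35. It was at 185, 202 and 216 scaled CPM in naive libraries, 213 and 199 at day 15, and 108, 85.9 and 167 at day 35. All 3 day 35 libraries lay below all naive and all day 15 libraries. The log2 difference from naive was 0.03 (SE 0.21) at day 15 and -0.79 (SE 0.18) at day 35.

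Cldn1, which seals tight junctions, was highest at day 15. Its levels were 83.3, 44.4 and 84.5 in naive libraries, 145 and 145 at day 15, and 35.9, 43.4 and 48.3 at day 35. The day 15 libraries lay above all others, while naive replicate 2 lay within the day 35 range. The log2 difference from naive was 1.09 (SE 0.23) at day 15 and -0.67 (SE 0.21) at day 35, and day 35 differed from day 15 by -1.76 (SE 0.23). The mean at day 15 was 2.05 times the naive mean.

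Cdh1, the calcium-dependent cadherin of adherens junctions, took the opposite course. It was at 153, 152 and 131 in naive libraries, 122 and 85.0 at day 15, and 217, 157 and 166 at day 35. The 3 groups did not overlap, with day 15 lowest and day 35 highest. The log2 difference from naive was -0.50 (SE 0.16) at day 15 and 0.30 (SE 0.15) at day 35, with 0.80 (SE 0.16) between the tumor times. The 2 junction genes thus had their extremes at day 15 in opposite directions.

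Krt8 and Krt18 were near the detection limit in naive and day 15 libraries and present in all day 35 libraries. Krt8 was at 0.118, 0.333 and 0.336 scaled CPM in naive libraries, 0.310 and 0.318 at day 15, and 18.8, 10.1 and 16.0 at day 35. These values stand for 3, 13 and 9 reads, 9 and 10 reads, and 541, 332 and 613 reads. Krt18 was at 0.185, 0.333 and 0.124 in naive, 0.212 and 0.258 at day 15, and 18.5, 7.26 and 18.2 at day 35, from 5, 13 and 3 reads, 6 and 8 reads, and 532, 238 and 695 reads. No day 35 library came near the levels of the earlier groups. The ratio of group means, day 35 to naive, was 57.1 for Krt8 and 68.4 for Krt18. The log2 differences were 3.63 (SE 0.22) and 3.59 (SE 0.30) at day 35, which understate the change because of the added 1, and 0.06 (SE 0.25) and 0.03 (SE 0.33) at day 15. With reads pooled over the naive libraries, the 95% exact Poisson interval was 0.164 to 0.375 CPM for Krt8 and 0.132 to 0.326 for Krt18, against 14.1 to 15.6 and 13.9 to 15.4 at day 35. These intervals cover counting error only.

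The ratio of Krt8 to Krt18 was 1.02, 1.39 and 0.88 in scaled CPM and 0.746, 1.02 and 0.647 per kb in day 35 replicates 1, 2 and 3. Day 35 replicate 2 held the least of both: replicate 1 exceeded it 1.86-fold for Krt8 and 2.55-fold for Krt18, and replicate 3 did so 1.59-fold and 2.51-fold. Over the 8 libraries log2(scaled CPM + 1) of the pair correlated at r = 0.995, a description that rests on the contrast of day 35 with the other groups. In these bulk samples, more cells that express a gene and more RNA per cell cannot be told apart.

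Hopx, an atypical homeodomain protein without DNA binding that marks alveolar type 1 cells, fitted neither pattern. It was at 5.16, 5.13 and 7.69 in naive libraries, 7.32 and 10.6 at day 15, and 20.1, 10.5 and 19.2 at day 35. Day 15 overlapped both other groups, while day 35 lay above naive. The log2 difference from naive was 0.51 (SE 0.27) at day 15 and 1.30 (SE 0.24) at day 35, where the mean was 2.77 times the naive mean. Day 35 replicate 2 was lowest of its group here too, at a level just below that of day 15 replicate B.

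**Figure D1:**
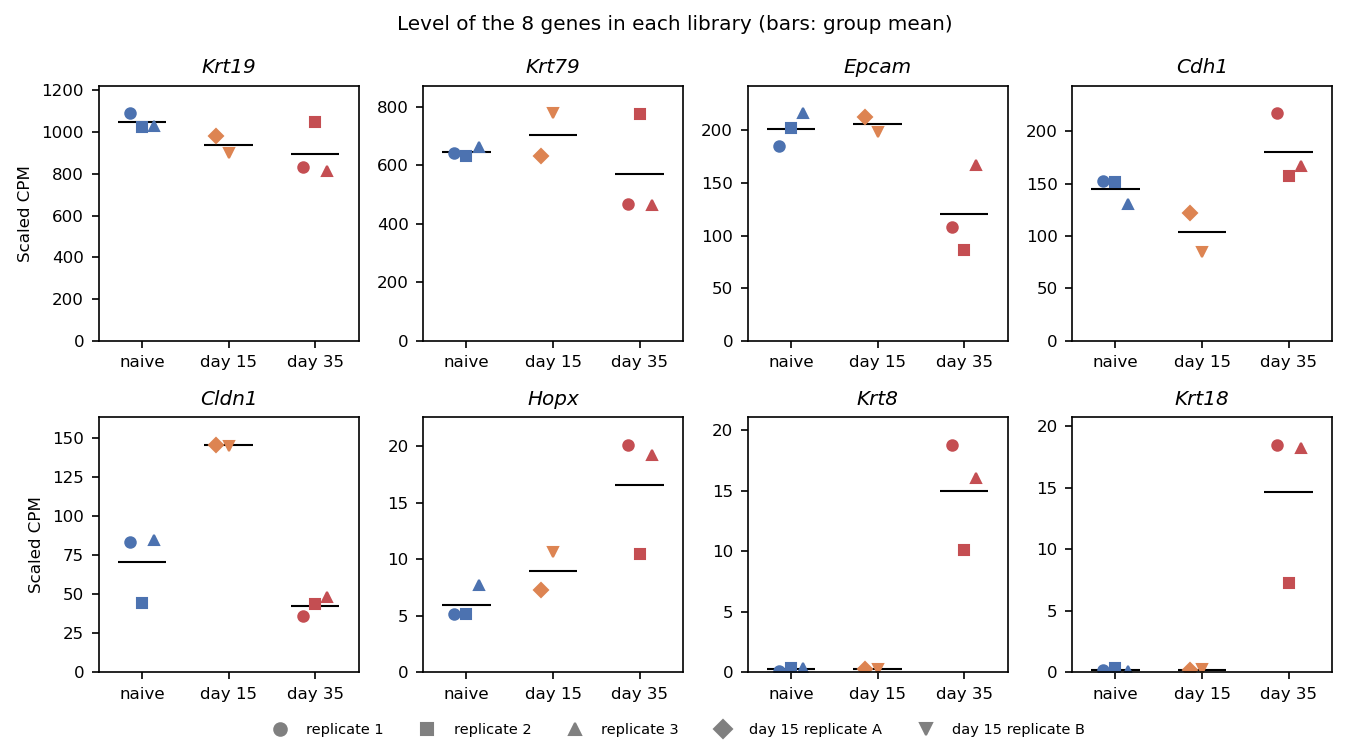
Level of each of the 8 genes in scaled CPM (linear axes from 0, 1 scale per gene) in 3 naive, 2 day 15 and 3 day 35 libraries; points are libraries, with a symbol per replicate, and bars are group means. Krt8 and Krt18 lie below 0.34 in all naive and day 15 libraries and at 7.26 or above at day 35, while Krt19 lies at 815 or above in every library.

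A gene was counted as high in naive macrophages when its lowest naive library held at least 10 scaled CPM. It was counted as late only when every naive and day 15 library held less than 2 and at least 2 day 35 libraries held 2 or more. Krt19, Krt79, Epcam, Cldn1 and Cdh1 were high in naive macrophages, Krt8 and Krt18 were late only, and Hopx was neither, with its lowest naive library at 5.13. The nearest member inside the first limit was Cldn1, whose lowest naive library held 44.4. Among all genes listed, 7964 (62.7%) were high in naive macrophages and 147 (1.16%) were late only. Among the 147, Krt8 and Krt18 ranked 13th and 14th by their day 35 mean.

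Divided by exon length, the mean levels in naive macrophages were ordered Krt19 (566 ± 19.3 scaled CPM per kb, SD, n = 3), Krt79 (136 ± 3.37), Epcam (91.7 ± 7.06), Cdh1 (31.7 ± 2.71), Cldn1 (14.6 ± 4.71), Hopx (3.95 ± 0.97), Krt18 (0.149 ± 0.075) and Krt8 (0.134 ± 0.064). Of these neighbours only Krt18 and Krt8 lay within each other's SD. At day 35 the order of levels per kb was Krt19 (484 ± 69.8, SD, n = 3), Krt79 (120 ± 37.6), Epcam (54.8 ± 19.1), Cdh1 (39.4 ± 7.04), Hopx (10.9 ± 3.52), Krt18 (10.2 ± 4.45), Cldn1 (8.79 ± 1.29) and Krt8 (7.65 ± 2.26). There Epcam and Cdh1 differed by less than the SD of Epcam, and the last 4 by less than the SD of Krt18. Krt19 ranked 37th of 12618 genes per kb in naive, 51st at day 15 and 61st at day 35. Krt8 moved from rank 11469 in naive to 4960 at day 35 and Krt18 from 11371 to 4146. The late pair thus reached mid-table levels, far below Krt19.

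A gene was called by limma at a Benjamini-Hochberg adjusted p of 0.05 over all 11273 genes tested. At day 15, 1 of the 8 genes was called against naive (Cldn1), where 4.37% of all genes were called. At day 35, 4 of 8 were called against naive (Krt8, Krt18 and Hopx higher, Epcam lower), where 16.2% of all genes were called, 9.86% higher and 6.32% lower. Between the tumor times 5 of 8 were called (Krt8, Krt18 and Cdh1 higher, Epcam and Cldn1 lower), where 7.39% of all genes were called. The groups did not overlap for 3 of 8 genes at day 15 (48.2% of all genes), for 5 of 8 at day 35 (36.7%) and for 5 of 8 between the tumor times (38.4%). These counts follow from how the genes were chosen and nothing is read from them. Both tumor comparisons share the naive libraries. In the authors' deposited table for day 15 against naive, the log2 fold changes were 1.02 for Cldn1, -0.50 for Cdh1, 0.55 for Hopx, -0.18 for Krt19, 0.11 for Krt79 and 0.01 for Epcam, and Krt8 and Krt18 are not listed in it. Unlike limma here, that table passes Cdh1 as well as Cldn1 at an adjusted p of 0.05.

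**Figure D2:**
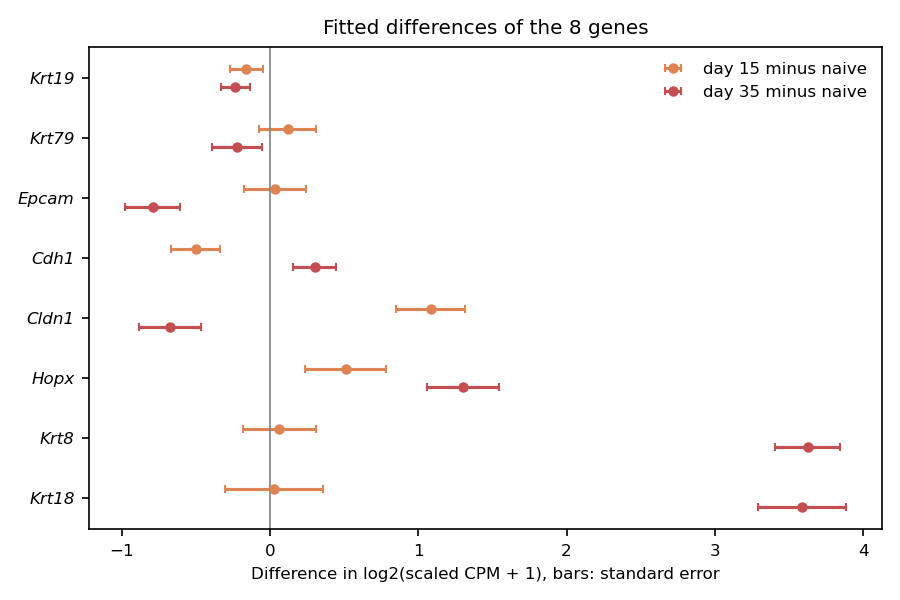
Fitted difference in log2(scaled CPM + 1) from the naive libraries at day 15 and day 35 for the 8 genes, with standard errors from the limma fit as bars. Krt8 and Krt18 lie at 3.63 and 3.59 at day 35 and near 0 at day 15, while Cldn1 lies at 1.09 at day 15 and -0.67 at day 35.

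The rest of the keratin, claudin and cadherin families also held genes present in naive macrophages and genes that were low until day 35. The table lists 9 other keratins, 9 other claudins and 4 other cadherins. Of these 22 genes, 7 were late only by the limits above: Krt7, Krt20, Cldn2, Cldn3, Cldn7, Cldn18 and Cldn23. Cldn18 and Cldn23 had reads in every naive library (means of 1.19 and 1.05), reached 2.39 and 2.06 at day 35, and did not pass the limma test (adjusted p = 0.0605 and 0.112). Krt80 was the one with at least 10 scaled CPM in every naive library. Because a gene had to reach 1 scaled CPM in 2 libraries to be tested, some passed only through their day 35 level and had to differ. Their number is given with each count, and a p-value is not used as support for their rise. Any list median that includes them is pulled up. Over all genes tested at day 35, 9.86% were called higher and 6.32% lower.

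Among the other keratins, 2 of 5 tested rose at day 35 and 1 fell, with 4 untested and 1 of the risen genes tested only through day 35. Without the filter on low values 4 of the 9 rose and 1 fell. The median log2 difference over the 5 was 0.35, beside -0.002 over all genes tested. Krt7, a type II keratin of simple epithelia, was at 0.420, 0.679 and 0.477 in naive libraries, 1.45 and 1.11 at day 15, and 15.6, 7.71 and 15.5 at day 35. As for Krt8 and Krt18, day 35 replicate 2 was lowest of its group. The log2 difference at day 35 was 3.14 (SE 0.24, limma adjusted p = 5.79e-05). Krt20, a type I keratin of intestinal epithelium, was the one tested only through day 35. It had 1 read over the naive libraries and 413 over the day 35 libraries, with a day 35 mean of 4.18 ± 1.79 (SD, n = 3). Krt80 fell from 17.2 ± 2.54 to 10.8 ± 2.29 (SD, n = 3 each, limma adjusted p = 0.0233). Its call ended without naive replicate 1 or 2 or day 35 replicate 1 or 3 (largest adjusted p = 0.0829). Krt78 did not pass and was at 5.77 ± 1.15 in naive and 5.64 ± 1.44 at day 35.

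Other claudins rose in 5 of 9 cases and fell in 1, with 4 of the risen genes tested only through day 35 (Cldn2, Cldn3, Cldn4 and Cldn6). Their median log2 difference was 1.14, and 1.21 with the 3 genes without a naive read set at their lower bound, beside -0.002 over all genes tested. Both claudin medians include the 4 genes tested only through day 35. Cldn2, a channel-forming claudin, had no read in any naive or day 15 library and 618 over the day 35 libraries, with a mean of 6.31 ± 3.48 (SD, n = 3). Against a floor of 3 reads over the naive group it was at least 203-fold higher. Cldn3 rose from 0.099 ± 0.055 to 3.39 ± 1.10 (SD, n = 3 each). Cldn7, which had a naive level of 1.74 ± 0.20, rose to 5.47 ± 1.58 (limma adjusted p = 0.00473). Cldn4, also without a naive read, was at 1.94 ± 0.79 at day 35 and at least 65.1-fold higher, and Cldn6 was at 1.38 ± 0.93 and at least 44.7-fold higher. Cldn5, the endothelial claudin, fell from 7.42 ± 0.92 to 4.39 ± 0.22 (limma adjusted p = 0.0348). The calls of Cldn5 and Cldn6 ended without any 1 of the naive libraries (largest adjusted p over all alternatives 0.116 and 0.0893). That of Cldn5 also ended without day 35 replicate 1 or 3, and that of Cldn6 with the replicate block. Cldn6 was too low to be tested without day 35 replicate 1 or 3. Cldn12, the most abundant of these claudins, was at 5.59 ± 0.96 in naive and 5.68 ± 2.33 at day 35.

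Of the 4 other cadherins, 1 rose and 1 fell, with a median log2 difference of -0.37. Cdh17, the liver-intestine cadherin, had no naive read and a day 35 mean of 3.09 ± 2.33, at least 95.3-fold higher. It was tested only through day 35. The endothelial cadherin Cdh5 fell from 5.13 ± 1.08 to 2.11 ± 0.44 (limma adjusted p = 0.0109), a call lost without naive replicate 2 (adjusted p = 0.0544). At day 15 none of the 57 other keratin, claudin, cadherin, tight junction, adherens junction and general epithelial genes tested was called by limma or edgeR. At an unadjusted p under 0.05 limma found 8 of them, and DESeq2 called 4. The 57 leave out the desmosome and keratin-linker genes and the transcription and splicing factors of epithelial cells, both described below. In each of these lists limma called 1 gene at day 15 (Plec and Ovol2), and edgeR also called 1.

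**Figure D3:**
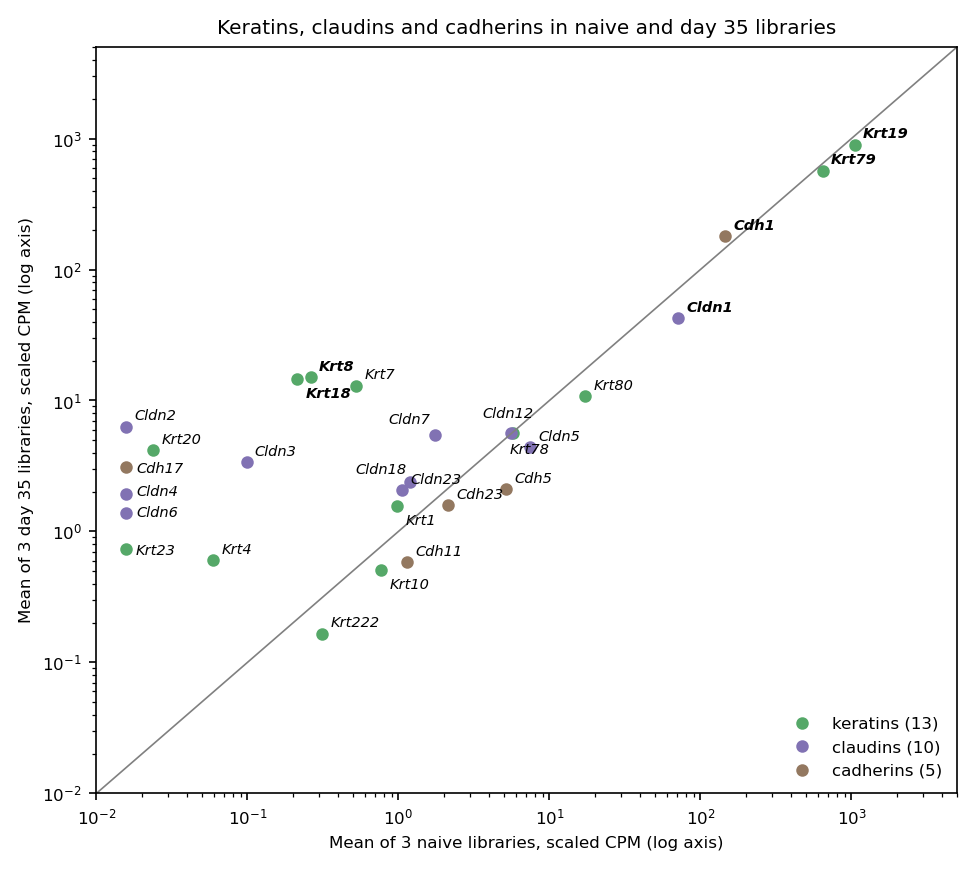
Mean level of every keratin, claudin and cadherin of the table in naive and day 35 libraries (scaled CPM, log axes, n = 3 each); the 6 of the 8 genes that belong to these families are in bold, and the line marks equal levels. Genes at the left edge had no naive read and are drawn at the value the table gives for 0 reads. Krt8, Krt18 and Krt7 lie far above the line, and Krt19, Krt79, Cdh1 and Cldn1 lie near it at high levels.

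Most core components of junctions did not pass the test at day 35. Among 14 tight junction genes tested, 1 rose and 3 fell, with a median log2 difference of -0.11. The polarity scaffold Patj fell from 216 ± 12.5 to 131 ± 4.78 (SD, n = 3 each, log2 difference -0.72, limma adjusted p = 0.000241), and Magi3 and Lsr fell by 0.56 and 0.27 on the log2 scale. The scaffold Tjp3 (ZO-3) rose from 2.83 ± 0.92 to 6.07 ± 1.16 (limma adjusted p = 0.0161), while its paralog Tjp1 was at 6.54 ± 3.44 and 3.91 ± 0.72 and did not pass. Occludin (Ocln) was at 69.2 ± 6.43 and 69.5 ± 7.88, and the adhesion molecule F11r (JAM-A) was at 372 ± 20.4 and 408 ± 49.4. The call of Tjp3 ended without naive replicate 2 or day 35 replicate 1 (largest adjusted p = 0.0661). That of Magi3 ended when any 1 library other than naive replicate 3 was left out, and that of Lsr when any 1 other than day 35 replicate 2 was (largest adjusted p = 0.142 and 0.137).

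Among 13 adherens junction genes tested, 1 rose and none fell, with a median of -0.11. Nectin2, an immunoglobulin-like adhesion molecule, rose from 4.35 ± 0.82 to 9.06 ± 0.66 (SD, n = 3 each, limma adjusted p = 0.00707). The catenins that bind Cdh1 were at near levels in naive and day 35 libraries: Ctnnb1 at 631 ± 9.10 and 632 ± 65.8, Ctnna1 at 173 ± 8.26 and 160 ± 7.06, and Ctnnd1 at 16.5 ± 1.92 and 15.2 ± 1.86. None of these catenin differences passed the limma test (adjusted p = 0.986, 0.282 and 0.592).

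Desmosome and keratin-linker genes moved both ways, with 3 of 8 tested higher and 4 lower. All 3 higher genes were tested only through day 35, and the median was -0.17. Pkp2, a plaque protein that links desmosomes to keratins, rose from 0.272 ± 0.290 to 3.94 ± 2.56 (SD, n = 3 each). The other 2 were the desmosomal cadherin Dsg2, without a naive read and at least 50.3-fold higher, and the hemidesmosome integrin Itgb4. The crosslinker Plec (plectin) fell from 199 ± 17.9 to 128 ± 18.1 (limma adjusted p = 0.00574) and was also lower at day 15, at 132 ± 16.9 (adjusted p = 0.0303). The day 15 call of Plec ended without any 1 of the naive or day 15 libraries, while its day 35 call held in all alternatives run. Dst, Itga6 and the desmosomal protein gene Perp fell by 0.76, 0.36 and 0.30 on the log2 scale. The calls of Dst, Itga6, Perp and Dsg2 ended without naive replicate 1 (largest adjusted p over all alternatives 0.0940, 0.0981, 0.0808 and 0.0736). Naive replicate 2 also ended those of Dst, Itga6 and Dsg2, naive replicate 3 those of Itga6, Perp and Dsg2, day 35 replicate 1 those of Dst and Perp, day 35 replicate 2 that of Itga6, and day 35 replicate 3 those of Dst and Itga6. Without day 35 replicate 1 or 3 only 7 of the 8 genes were tested, with 2 higher. Among 8 other intermediate filament genes tested, Lmnb1, Des and Iffo1 fell and none rose, and each of these calls ended without naive replicate 2, among other libraries (largest adjusted p = 0.0844, 0.120 and 0.0847). Vim, the filament protein of macrophages and mesenchymal cells, was at 2181 ± 77.1 in naive and 2157 ± 246 at day 35 and did not pass.

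Of 7 transcription and splicing factors that shape epithelial cells tested, 4 rose at day 35, all tested only through day 35. Klf4, the most abundant of the list, was at 74.3 ± 9.25 in naive, 73.2 ± 1.28 at day 15 (SD, n = 2) and 57.1 ± 20.6 at day 35 (SD, n = 3) and did not pass the limma test at either time (adjusted p = 0.979 and 0.163). Elf3 rose from 0.084 ± 0.058 to 2.13 ± 1.16 and Foxa1 from 0.080 ± 0.092 to 1.32 ± 0.28 (SD, n = 3 each). Esrp2 and Ehf reached 1.37 ± 0.58 and 1.32 ± 0.53. The count of 4 went to 1 without day 35 replicate 1 or without day 35 replicate 3, where only 4 of the 7 genes were still tested. It went to 2 without naive replicate 1 or 3. Ovol2, an epithelial repressor, rose at day 15 from 6.21 ± 0.21 to 11 ± 0.32 (limma adjusted p = 0.0412), a call lost without any 1 of the naive or day 15 libraries. Zeb1, which represses epithelial genes through E-boxes, fell from 12.0 ± 1.25 to 6.97 ± 1.85 at day 35 (limma adjusted p = 0.0173). That call ended without naive replicate 1 or 2 or day 35 replicate 1 or 3 (largest adjusted p = 0.0617). Its more abundant paralog Zeb2 was at 230 ± 12.0 in naive and 204 ± 28.4 at day 35 (SD, n = 3 each) and did not pass there (limma adjusted p = 0.230). Zeb2 fell at day 15, to 166 ± 14.7 (limma adjusted p = 0.0453), a call lost without any 1 of the naive or day 15 libraries.

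The general epithelial markers, like all lists, were chosen with earlier results of these data known, so their count is a description. Of 16 tested, 14 rose at day 35 and none fell, where 9.86% of all genes tested were called higher. Of the 14, 6 were tested only through day 35. The median log2 difference, which includes these 6, was 1.45, beside -0.002 over all genes tested. Of the list, 5 genes are claudins, Krt7 or Elf3, described above. The count of risen genes was 9 without day 35 replicate 3, 10 without naive replicate 3, 11 without naive replicate 2 or day 35 replicate 1, 12 without naive replicate 1 and 13 without day 35 replicate 2. Without day 35 replicate 1 or 3 only 14 of the 16 were tested. Sdc1 (syndecan 1), a proteoglycan of epithelial and plasma cells, was tested only through day 35. It was at 0.286, 0.482 and 0.760 in naive libraries, 0.864 and 0.197 at day 15, and 30.6, 13.1 and 22.2 at day 35 (log2 difference 3.86, SE 0.29). The membrane mucin Muc1 rose from 1.59 ± 0.38 to 14.6 ± 7.87 and the membrane protease St14 from 0.962 ± 0.201 to 4.57 ± 1.77 (SD, n = 3 each, limma adjusted p = 0.00343 and 0.00385). Spint1 and Cd24a, both at 145 in naive libraries, were at 188 and 192 at day 35. The call of Spint1 ended without naive replicate 2 or 3 or day 35 replicate 1 or 3. That of Cd24a ended without any 1 naive library or without day 35 replicate 2 or 3 (largest limma adjusted p = 0.0941 and 0.0905). Summed over the 19 markers in the table, the level was 401 to 431 in naive, 404 to 446 at day 15 and 536 to 607 at day 35. Spint1 and Cd24a made up most of the naive and day 35 sums. No marker of this list was at 0 reads in a day 35 library, and 2 were at 0 in each naive library.

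No marker of alveolar type 2 or airway cells was called between naive and day 35 in the main fit. None of 10 alveolar type 2 markers was called at day 35 by limma, edgeR or DESeq2, and none had an unadjusted limma p under 0.05. Their summed level was 152 to 213 in naive and 136 to 194 at day 35, and none was at 0 in any library. Abca3 made up the largest part of the sum of these markers, at 83.4 ± 7.77 in naive and 75.4 ± 9.23 at day 35 (SD, n = 3 each). Surfactant protein C (Sftpc), their defining gene, was at 26.0 ± 16.3 and 14.9 ± 6.65 (SD, n = 3 each, limma adjusted p = 0.304). Of 5 airway markers tested none was called by any of the 3 tools, or had an unadjusted limma p under 0.05. Their sum of 314 to 334 in naive and 215 to 396 at day 35 was mostly Tppp3. Without day 35 replicate 3, Tppp3 was called lower (log2 difference -0.37). Among 7 alveolar type 1 markers 1 rose and 2 fell: Pdpn (podoplanin) rose from 10.4 ± 1.14 to 18.4 ± 3.22 and Akap5 fell from 22.0 ± 2.76 to 13.2 ± 0.13 (limma adjusted p = 0.0109 and 0.00407), with Clic5 also lower (adjusted p = 0.0129), a call lost without naive replicate 2 or 3. The count of risen genes was 3 with DESeq2 and 2 without the low-value filter, without day 35 replicate 2 or without day 35 replicate 3. The most abundant of these markers, Cav1, was at 188 ± 33.5 in naive and 248 ± 39.3 at day 35 (SD, n = 3 each, limma adjusted p = 0.0685), and passed between day 15 (145 ± 2.95) and day 35 (adjusted p = 0.0159). Aqp5, the water channel of type 1 cells, was at 0.31 in naive and 0.63 at day 35. The mesothelial gene Msln, the 1 tested of its list and tested only through day 35, rose from 0.114 ± 0.168 to 1.94 ± 1.31. Its call ended without naive replicate 1 or 3 and with DESeq2 (largest adjusted p = 0.165). Msln was too low to be tested without day 35 replicate 1 or 3.

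Markers of other leukocytes also differed between naive and day 35 libraries. Of 8 monocyte and interstitial macrophage markers 6 rose, with summed levels of 66.3 to 69.0 in naive, 87.7 and 105 at day 15, and 781, 199 and 370 in day 35 replicates 1, 2 and 3. The count of risen genes was 4 without naive replicate 2, where Apoe and Ccr2 did not pass. It was 5 without naive replicate 3, where Ccr2 did not pass. C1qb rose from 1.26 ± 0.71 to 99.3 ± 56.0 (SD, n = 3 each, limma adjusted p = 4.34e-05). Day 35 replicate 2 again held the least, with replicate 1 exceeding it 3.56-fold and replicate 3 exceeding it 2.25-fold for C1qb. Across the 147 late only genes, replicate 2 was the lowest day 35 library for 114, replicate 3 for 28 and replicate 1 for 5. Endothelial markers fell in 7 of 9 cases, from a sum of 261 to 323 in naive to 160 to 207 at day 35. Leaving out naive replicate 2 brought this count to 1, leaving out naive replicate 3, day 35 replicate 1 or day 35 replicate 3 to 4, and leaving out day 35 replicate 2 to 5. Between naive and day 35, no dendritic cell marker of 5 tested was called by limma, edgeR or DESeq2 or had an unadjusted limma p under 0.05. At day 15 the dendritic cell gene Clec9a fell from 3.17 ± 0.94 to 1.06 ± 0.37 (limma adjusted p = 0.0423), a call lost without naive replicate 1 or 2 or without either day 15 library, and it was at 4.19 ± 0.57 at day 35, above day 15 (adjusted p = 0.00758, a call lost without day 15 replicate A). The part of other cells, tumor cells included, in the levels of Krt8, Krt18 and the other late genes was not tested.

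**Figure D4:**
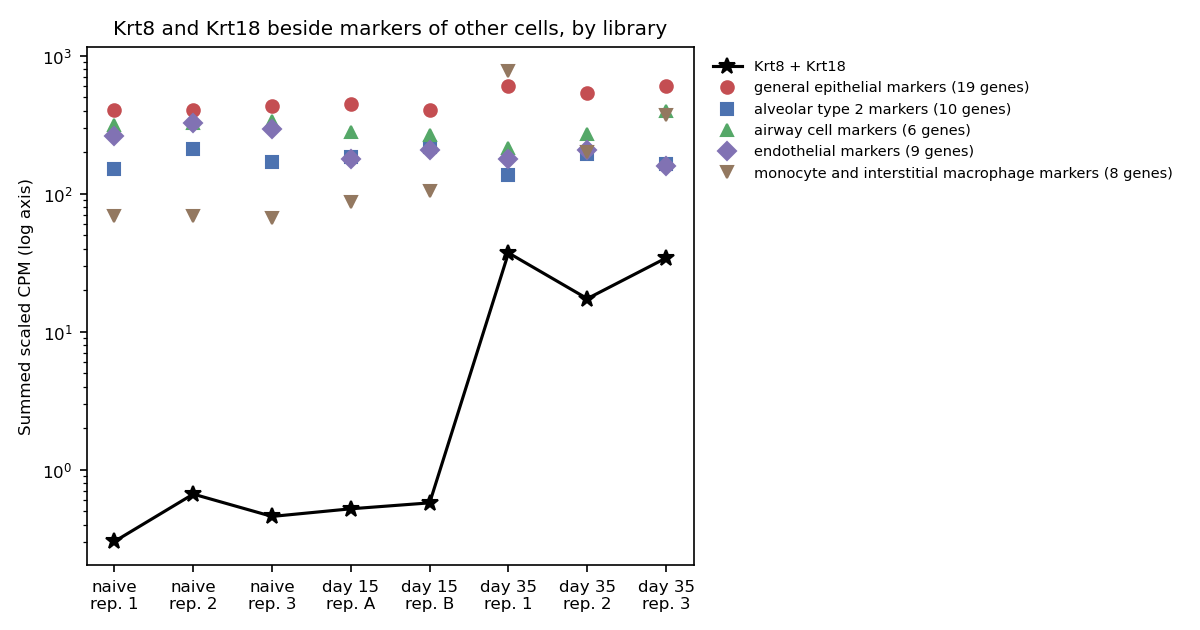
Summed scaled CPM (log axis) of Krt8 and Krt18 and of 5 marker lists in each of the 8 libraries. The sum of Krt8 and Krt18 and the monocyte and interstitial macrophage markers (199 to 781 at day 35) were higher in all day 35 libraries, while alveolar type 2 markers stayed between 136 and 217 in all groups.

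The 3 genes whose levels were most like each of the 8 were taken by Pearson's r of log2(scaled CPM + 1) over the 8 libraries, among 8798 genes with a mean of at least 3. For Krt8 they were Ptgs1 (r = 0.990), Cd63 (0.989) and Procr (0.989), and for Krt18 they were Clu (0.997), Ptgs1 (0.990) and Sema4d (0.986). Ptgs1, which encodes the cyclooxygenase COX-1, was at 10.8, 10.3 and 12.0 in naive libraries, 9.57 and 8.99 at day 15, and 64.1, 35.1 and 51.7 at day 35. Like the pair, it was lowest in replicate 2 among the day 35 libraries. Cldn1 was most like the desmosomal gene Perp (r = 0.970), followed by Rmc1 and Dhrs4. Cdh1 was most like Susd6 (0.992), Epcam like Acy1 (0.977), Krt19 like Atp10a (0.981), Krt79 like Mfn1 (0.983) and Hopx like Slc31a1 (0.976). With so many candidates and 8 libraries that share 3 groups, high values of r are a description of these libraries only.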

How the data were processed

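Expression was measured by RNA sequencing (SMART-Seq v4 cDNA from 1 ng of RNA, per the labels' protocols). The submitters' processing notes name STAR 2.5, mm10 and edgeR without a version; how reads were counted is not stated there or in the labels. The authors deposited a normalized signal per gene of the form (reads + 0.5)/(library size + 1) scaled as CPM; 100% of values came out as whole reads within 0.001. The genes deposited held at least 41 reads over all libraries. Per the file headers, the authors' deposited day 15 table gives a log2 fold change per gene with a test score and its p-value. In the expression table, the day 15 columns are numbered differently from the sample titles, so they were assigned to the group only, as replicates A and B.

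The main test was limma 3.58.1 (R 4.3.3), with trend, on log2(value + 1), over 11273 genes with at least 1 in at least 2 libraries, with group as the only term and Benjamini-Hochberg adjustment. Alternatives were edgeR 4.0.16 (quasi-likelihood) and DESeq2 1.42.0 on recovered reads, a pseudocount of 0.1, no filter, only the 2 groups compared, each library left out, and a replicate block. The limma step was checked on simulated data. Gene positions and exon lengths came from GENCODE on GRCm38. The 8 genes, the limits that sort them and all lists were chosen with earlier results of these data known. From each list the 2 genes with the smallest adjusted p at day 35 and the one with the highest mean were taken; other listed genes named were chosen after their values were seen.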

Additional observations from a re-analysis of the deposited data

How the results depend on the processing

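At day 15 against naive 493 genes were called. The count was 1451 with DESeq2, 1454 with only the 2 groups fitted, and 11 (without day 15 replicate B) to 1084 (without day 35 replicate 3) with 1 library left out. At day 35 against naive 1824 were called, with 628 (naive replicate 2) to 2288 (day 35 replicate 2) when 1 library was left out. Between the tumor times 833 were called, with 1368 by DESeq2, 411 with only the 2 groups fitted, and 184 (day 15 replicate B) to 1046 (day 35 replicate 2) with 1 library left out. Deviations from the group means correlated at -0.007, -0.046 and 0.147 for naive and day 35 libraries of the same number. For libraries of different numbers the values were -0.100 to 0.103. With 3 libraries in a group, these values cannot show whether shared numbers pair libraries. A replicate block gave 1461 genes at day 35 against naive. The cause of these shifts was not tested.

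Of 64 listed genes called at day 35, leaving out naive replicates 1, 2 and 3 ended 22, 31 and 24 calls, and leaving out day 35 replicates 1 and 3 ended 17 and 16, against 11 with the block and 3 with edgeR. Genes that became too low to be tested in a setting are not among these losses. The log2 differences of the 8 genes ranged over all settings from 3.45 to 5.89 for Krt8 and from 3.38 to 6.13 for Krt18 at day 35, with the upper values at a pseudocount of 0.1 or from the count models, from -1.05 to -0.58 for Epcam, and from 0.78 to 1.24 for Cldn1 at day 15.

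Log2 differences near 0 changed sign for 5 listed genes that were not called in the main fit. Cldn12 was at 0.0229 with edgeR and 0.0171 with DESeq2, and with 1 library left out ranged from -0.24 to 0.29. The same ranges were -0.058 to 0.086 for Ctnnb1, -0.091 to 0.072 for Vim, -0.37 to 0.026 for Tppp3 and -0.043 to 0.068 for Cd2.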
